A study of Mus musculus with 12 samples.

Results

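*Syt6*, *Slc22a3*, *Fam159b*, *Alox12e* and *Plet1* are 5 genes outside the Notch pathway that had lower counts in every Jag1-deleted cochlea than in any control cochlea. They were picked out of 28686 gene symbols counted by RNA-seq. RNA-seq counts sequencing reads per gene as a measure of the amount of its transcripts in the tissue. The mutants were *Sox2*CreER/+*Jag1*fl/fl mice and the controls were *Sox2*+/+ littermates, which carried 1 or 2 floxed *Jag1* alleles and no CreER. The study asked what the loss of JAG1 does to the maturing cochlea. There were 6 animals of each genotype, of a mixed C57BL/6;129SV strain according to the labels. All pups received tamoxifen on P0 and P1, and cochlear tissue was taken at P6. CreER is made from the *Sox2* locus, which is active in supporting cells, and tamoxifen lets it cut out the floxed part of *Jag1*. The insertion takes 1 copy of *Sox2*, so the genotypes differ at *Sox2* and in CreER as well as at *Jag1*, and these cannot be told apart. The sources name no pooling of animals, and litters and sexes were not given, so a litter or sex effect was not tested.

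JAG1 is a ligand of the Notch receptors. When a ligand on 1 cell binds a receptor on its neighbour, the receptor is cut, and its inner part enters the nucleus and joins the DNA-binding protein RBPJ to switch on genes such as those of the Hes and Hey families. In the cochlea, JAG1 is made by supporting cells, which surround the hair cells and also express *Sox2*, a transcription factor of the sensory lineage. The 5 genes are not known as core parts of this pathway and have unlike roles. *Plet1* encodes a surface protein anchored by a lipid and known from epithelial progenitor cells. *Slc22a3* encodes OCT3, a carrier that takes up monoamines and other organic cations. *Syt6* encodes a synaptotagmin, a family of membrane proteins that act in vesicle fusion. *Alox12e* encodes an epidermal-type 12-lipoxygenase, an enzyme that adds oxygen to fatty acids. *Fam159b*, whose current name is *Shisal2b*, encodes a Shisa-like membrane protein about which little is known.

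The genes lie on 5 different chromosomes of GRCm38. *Syt6* lies at chr3:103575231-103645569 on the plus strand and *Plet1* at chr9:50494525-50505482 on the plus strand. *Alox12e* lies at chr11:70315610-70322628, *Fam159b* at chr13:104845283-104863893 and *Slc22a3* at chr17:12418960-12507704, all on the minus strand. *Jag1* itself is on chromosome 2, and *Sox2* and *Hey1* are on chromosome 3.

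Since the genes were lower in the same animals, their promoters were searched, on both strands, for the letters TGGGAA, the core of the RBPJ site, for CACGTG, an E-box as Hey proteins can bind, and for CATTGT, a core of SOX sites. RefSeq gives 7 promoters of 300 bases for the 5 genes, from 250 bases before to 50 bases after a transcription start (GRCm38.p6). 3 of the 7 belong to *Syt6*. A match is only a match of letters. The sequences are shown 5′ to 3′ on the strand of the gene, with matches in capitals. For *Syt6* the windows of the first start (chr3:103574995-103575294, plus strand) and of the last (chr3:103575876-103576175, plus strand) are given. The others are chr17:12507655-12507954 (minus strand) for *Slc22a3*, chr13:104863844-104864143 (minus strand) for *Fam159b*, chr11:70322481-70322780 (minus strand) for *Alox12e* and chr9:50494275-50494574 (plus strand) for *Plet1*.
Syt6, first start: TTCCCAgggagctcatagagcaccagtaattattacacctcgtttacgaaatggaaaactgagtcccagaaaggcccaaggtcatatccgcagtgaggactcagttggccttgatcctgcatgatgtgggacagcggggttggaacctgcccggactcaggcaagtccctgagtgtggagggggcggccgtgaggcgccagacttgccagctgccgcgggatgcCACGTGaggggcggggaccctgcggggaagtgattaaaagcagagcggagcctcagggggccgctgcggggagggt
Syt6, last start: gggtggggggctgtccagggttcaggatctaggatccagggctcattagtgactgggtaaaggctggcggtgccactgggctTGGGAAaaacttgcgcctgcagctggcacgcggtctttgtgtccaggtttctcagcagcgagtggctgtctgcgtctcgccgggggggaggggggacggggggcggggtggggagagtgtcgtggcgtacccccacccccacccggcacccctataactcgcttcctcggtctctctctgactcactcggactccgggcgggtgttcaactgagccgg
Slc22a3: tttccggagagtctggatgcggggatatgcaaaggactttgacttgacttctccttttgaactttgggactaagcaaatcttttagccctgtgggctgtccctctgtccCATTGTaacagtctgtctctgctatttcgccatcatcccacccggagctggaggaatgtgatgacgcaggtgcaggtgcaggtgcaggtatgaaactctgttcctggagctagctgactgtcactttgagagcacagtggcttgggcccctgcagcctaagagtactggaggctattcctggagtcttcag
Fam159b: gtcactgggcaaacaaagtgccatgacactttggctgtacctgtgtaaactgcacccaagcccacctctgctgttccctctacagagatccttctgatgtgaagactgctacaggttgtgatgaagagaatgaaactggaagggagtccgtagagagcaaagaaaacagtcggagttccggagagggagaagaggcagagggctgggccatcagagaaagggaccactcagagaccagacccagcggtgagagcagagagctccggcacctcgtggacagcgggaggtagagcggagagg
Alox12e: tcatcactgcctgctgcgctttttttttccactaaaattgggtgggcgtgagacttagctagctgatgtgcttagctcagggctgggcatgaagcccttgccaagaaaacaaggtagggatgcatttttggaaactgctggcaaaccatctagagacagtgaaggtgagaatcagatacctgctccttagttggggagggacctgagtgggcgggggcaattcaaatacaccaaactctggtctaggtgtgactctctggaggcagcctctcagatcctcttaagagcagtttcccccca
Plet1: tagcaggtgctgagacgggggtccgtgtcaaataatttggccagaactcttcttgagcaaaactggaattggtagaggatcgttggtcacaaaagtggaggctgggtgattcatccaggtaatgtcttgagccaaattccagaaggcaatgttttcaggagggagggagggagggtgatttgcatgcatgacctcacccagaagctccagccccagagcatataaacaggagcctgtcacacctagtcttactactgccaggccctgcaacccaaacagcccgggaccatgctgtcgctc

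The RBPJ core was present in 2 of the 7 windows, both of *Syt6*. In the window of the first start it stands on the minus strand at position 1, counted from the 5′ end, and in that of the last start on the plus strand at position 83. Of 32851 promoters of this length, 25.6% hold the same letters. The E-box was found in the window of the first start of *Syt6* at position 225, and again in the overlapping window of a start nearby. It is present in 7.15% of all promoters. The SOX core was found in 1 window, that of *Slc22a3*, at position 110 on the plus strand, and 12.6% of all promoters hold it. The windows of *Fam159b*, *Alox12e* and *Plet1* held none of the 3 sets of letters.

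Depth was even. Between 28498549 and 36134983 reads were assigned to genes in each animal. Tests with edgeR took the 18459 of 28686 symbols that reached a mean count of 5, all 5 genes among them. Levels are given as CPM, the reads of a gene per 1000000 counted reads, scaled between libraries by the TMM method. The 6 controls held 83.0 to 118 CPM of *Jag1* and the 6 mutants 24.2 to 42.9 CPM, so no library went against its label. Markers of both sensory cell kinds were present in every library, with 494 to 602 CPM summed over 12 hair cell markers and 2908 to 4037 CPM summed over 12 supporting cell markers. The tissue was not epithelium alone, since 8 mesenchyme markers summed to 8926 to 11572 CPM. In such bulk samples, fewer cells of a type and less RNA per cell cannot be told apart.

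The 5 genes were chosen by the very values that follow, so their differences between genotypes are described without a test. *Syt6* ranged from 7.54 to 9.64 CPM (median 8.97) in controls and from 3.18 to 5.05 CPM (median 3.43) in mutants. The lowest control stood 1.49-fold above the highest mutant, mutant 4, and the other 5 mutants lay at 3.18 to 4.20 CPM. Means were 8.82 ± 0.829 CPM for the 6 controls and 3.76 ± 0.732 CPM for the 6 mutants (± SD). Mutants thus held 42.6% of the control mean, and the log2 fold change was -1.23 ± 0.13 (SE).

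*Slc22a3*, the cation carrier, ranged from 11.96 to 15.9 CPM (median 13.8) in controls and from 4.64 to 8.24 CPM (median 6.95) in mutants. Mutant 2 was the lowest animal and mutant 4 the highest of its genotype, and the lowest control was 1.45-fold above the latter. With means of 13.9 ± 1.24 and 6.67 ± 1.20 CPM (SD, n = 6 each), the log2 fold change came to -1.06 ± 0.12 (SE), and 48.1% of the control level was left.

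*Fam159b*, the Shisa-like gene, ranged from 2.23 to 3.57 CPM (median 3.22) in controls and from 0.515 to 1.26 CPM (median 0.984) in mutants. Controls 1 and 3 were low and the other 4 lay between 3.18 and 3.57 CPM. Mutant 2 was again the lowest, with 17 reads where the other mutants had 34 to 41. With means of 3.03 ± 0.537 and 0.983 ± 0.261 CPM (SD, n = 6 each), the log2 fold change came to -1.62 ± 0.20 (SE), with 32.5% of the control level left.

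*Alox12e*, the lipoxygenase, was the least abundant and showed the largest fold. It ranged from 1.03 to 1.97 CPM (median 1.29) in controls, or 30 to 68 reads, and from 0.204 to 0.485 CPM (median 0.278) in mutants, or 7 to 16 reads. Control 5 was the highest control, followed by one at 1.43 CPM, and mutants 2 and 3 were the highest of their genotype. With means of 1.35 ± 0.333 and 0.317 ± 0.127 CPM (SD, n = 6 each), the log2 fold change came to -2.08 ± 0.26 (SE), which left 23.5% of the control level. At so few reads, counting error alone would give a coefficient of variation of 30.4% among the mutants, against the 40.1% observed.

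*Plet1*, the surface protein gene, was the most abundant and showed the smallest fold. It ranged from 22.3 to 28.3 CPM (median 24.0) in controls and from 15.0 to 19.2 CPM (median 17.0) in mutants. The groups stood close, with the lowest control only 1.16-fold above the highest mutant. With means of 24.6 ± 2.27 and 16.9 ± 1.51 CPM (SD, n = 6 each), the log2 fold change came to -0.54 ± 0.08 (SE), with 68.8% of the control level left. *Plet1os*, an antisense gene that spans the whole of *Plet1*, was counted at 15 to 29 reads per animal against 494 to 824 for *Plet1*, with a log2 difference of -0.21 ± 0.19 (SE, edgeR adjusted p = 0.824). Whether the counting used strand is not given in the sources used here, so the share of reads that the pair exchanged was not tested.

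**Figure D1:**
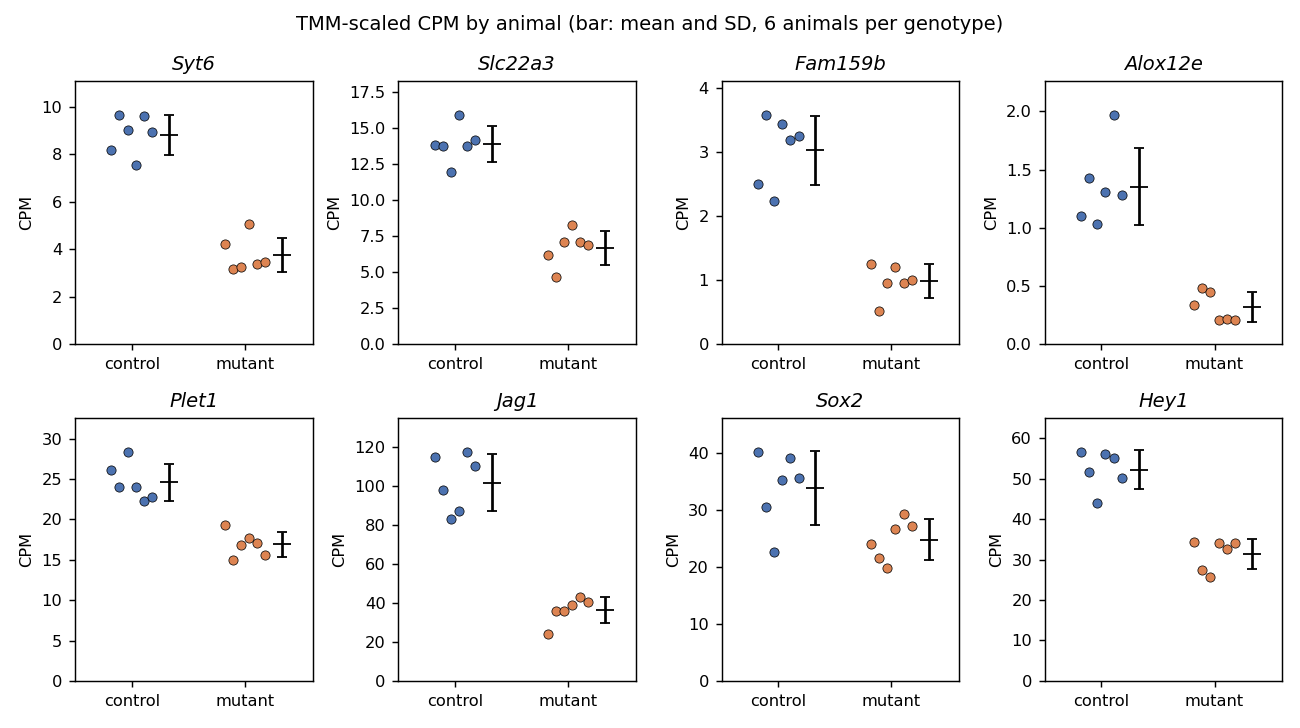
Level of each gene in CPM (y axis, from 0) in each of the 6 control and 6 mutant animals (points), with the mean and SD beside them. In the panels of *Syt6*, *Slc22a3*, *Fam159b*, *Alox12e*, *Plet1*, *Jag1* and *Hey1* every mutant lies below every control, whereas in that of *Sox2* the groups overlap.

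*Slc22a3* overlaps *Plg* by 426 bases on the opposite strand, and *Plg* had 0 to 12 reads per animal. It also overlaps the antisense gene AC132106.1 by 12735 bases. *Syt6* overlaps *Atg4a-ps*, which had 0 to 3 reads, and *Gm43066* by 1260 bases. AC132106.1 and *Gm43066* have no symbol of their own in the counts table, so whether their reads were counted with *Slc22a3* and *Syt6* was not tested. *Fam159b* and *Alox12e* overlap no other annotated gene.

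For comparison, *Jag1* had means of 102 ± 14.7 and 36.4 ± 6.55 CPM in the 2 genotypes (SD, n = 6 each), and 35.7% of its control level was left. *Fam159b* and *Alox12e* had a lower share of their control level left than *Jag1* itself, *Syt6*, *Slc22a3* and *Plet1* a higher one, and these shares were not tested against each other. *Hey1*, a transcription factor gene switched on by Notch, lay between 43.9 and 56.6 CPM in controls and between 25.7 and 34.3 CPM in mutants, 60.0% of the control mean. *Sox2* was the exception among the 3 reference genes, since its range of 22.7 to 40.2 CPM in controls overlapped that of 19.9 to 29.4 CPM in mutants. For *Sox2* edgeR gave a log2 fold change of -0.45 ± 0.13 (SE) with an adjusted p of 0.143. *Sox2* passed the threshold in 2 of the 21 fits made, over which its adjusted p ranged from 0.0349 to 1. These were DESeq2 (adjusted p = 0.0349) and edgeR with the replicate number as a block (adjusted p = 0.0467). The labels do not say what that number stands for.

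Of all tested genes, 70 had no overlap and were lower in mutants, which is 0.379% of them, 66 of these outside the Notch list. Ordered by the ratio of the lowest control to the highest mutant, *Alox12e* was the 2nd of the 66, *Fam159b* the 3rd, *Syt6* the 4th, *Slc22a3* the 5th and *Plet1* the 14th. A ratio above 1 is what the choice required, so nothing is read from it. At the edge of that rule, *Lasp1* stood just inside (170 CPM in controls, 157 in mutants) and *Nacc1* just outside (170 and 154 CPM). edgeR called 35 of the 18459 genes at an adjusted p under 0.05, or 0.190%, 15 of them lower and 20 higher in mutants. The 5 genes are within that count, but the same contrast chose them, so nothing is read from it. That count lay between 14 and 357 when 1 animal was left out.

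Markers of other cell types also had other levels in mutants. Over all 18459 tested genes, 1949 had an unadjusted edgeR p under 0.05, 1204 higher and 745 lower in mutants. DESeq2 called 619 of the 18459 and limma-voom 19. The 12 neuron markers summed to 124 to 245 CPM in controls and 153 to 1405 CPM in mutants, and all 12 had a positive log2 fold change. edgeR called none of them (11 at an unadjusted p under 0.05), limma-voom none and DESeq2 9. The 12 Schwann cell markers summed to 588 to 1627 CPM in controls and 1339 to 6583 CPM in mutants, also with 12 of 12 higher in mutants. Here edgeR again called none (11 at an unadjusted p under 0.05), limma-voom none and DESeq2 10. No neuron or Schwann cell marker was at 0 in every library. When the mean log2 levels of both marker lists were put into the fit as covariates, the log2 fold changes of the 5 genes became -1.42 for *Syt6*, -0.86 for *Slc22a3*, -1.58 for *Fam159b*, -2.35 for *Alox12e* and -0.56 for *Plet1*. In the same fit the number of called genes over the whole table dropped from 35 to 1. That gene is 1 of the 5, and the others of the 5 were not called there. The same contrast chose them, so nothing is read from this. The deleted gene *Jag1* was itself not called there, with -1.39 ± 0.21 (SE, edgeR adjusted p = 0.0891). *Hey1* was not called either, with -0.77 ± 0.14 (SE, edgeR adjusted p = 0.215). Without the covariates the SEs of these 2 genes were 0.13 and 0.09. The supporting cell markers summed to 3371 to 4037 CPM in controls and 2908 to 3399 CPM in mutants, with 3 of 12 at an unadjusted p under 0.05, all lower, and 0 called by edgeR, DESeq2 or limma-voom. The macrophage, hair cell, mesenchyme, stria vascularis and blood lists had no gene called by edgeR or limma-voom. At an unadjusted edgeR p under 0.05 were 4 of 8, 1 of 12, 1 of 8, 0 of 8 and 1 of 5 genes, respectively. Of these, the hair cell marker was higher in mutants and the others lower. None of the 8 macrophage markers had a positive log2 fold change. DESeq2 called 1 macrophage marker, *Csf1r*, which was lower without overlap, and 1 hair cell marker, *Pvalb*, which was higher (log2 fold change 1.42 in edgeR). The fit above held only the neuron and Schwann cell scores. The part of the supporting cell and other markers in the values of the 5 genes was not tested.

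Levels of different genes were compared per kilobase of exon. In controls *Plet1* was the highest at 12.6 ± 1.16 CPM per kilobase, followed by *Slc22a3* at 3.07 ± 0.275, *Fam159b* at 1.98 ± 0.351, *Syt6* at 1.51 ± 0.142 and *Alox12e* at 0.479 ± 0.118 (SD, n = 6). *Fam159b* and *Syt6* overlapped in this order, at 1.46 to 2.34 and 1.29 to 1.65 CPM per kilobase, and the other neighbours did not. In mutants *Fam159b* and *Syt6* were at the same level, with means of 0.643 ± 0.171 and 0.645 ± 0.126 CPM per kilobase (SD, n = 6). *Plet1* at 8.68 ± 0.775, *Slc22a3* at 1.48 ± 0.265 and *Alox12e* at 0.112 ± 0.0451 CPM per kilobase kept their places. In controls *Plet1*, at 11.4 to 14.5 CPM per kilobase, overlapped the range of *Jag1*, 14.2 to 20.2. In mutants *Plet1*, at 7.69 to 9.89, lay above every value of *Jag1*, which reached 4.16 to 7.36 CPM per kilobase.

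To find out whether the 5 genes followed *Jag1*, *Sox2* or *Hey1* from animal to animal, levels were correlated within each genotype, which removes the difference that chose the genes. Values are log2(CPM + 0.1). None of the 30 correlations of a member with a reference gene within 1 genotype had an adjusted p under 0.05 by the exact permutation test over 720 pairings, and 1 of 30 had an unadjusted p under 0.05. With 6 animals the smallest p that this test can give is 0.00139. After the adjustment over 30 pairs, 1 pair alone could be called only at that smallest p. The absence of calls within 1 genotype therefore cannot show that the genes vary independently. After the mean of each genotype was subtracted, the 12 animals together gave no called pair among 25 either, and 1 of the 25 had an unadjusted p under 0.05.

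For *Jag1* the correlations over the 12 animals were weak in 4 genes. Pearson's r was -0.101 for *Syt6* (95% interval -0.661 to 0.531), 0.255 for *Slc22a3* (-0.407 to 0.741), -0.128 for *Fam159b* (-0.676 to 0.511) and -0.114 for *Alox12e* (-0.668 to 0.522). *Plet1* had the largest, and it was negative, with r = -0.588 (-0.878 to 0.0179), permutation p = 0.0583, adjusted p = 0.526. Spearman's rho was -0.457 (permutation p = 0.170). Without the 2 animals farthest from the median of *Jag1*, r was 0.0577, so that the relation rests on those animals. With 1 animal left out, r was between -0.695 and -0.352. Mutant 1 held the least *Jag1* of all animals (24.2 CPM, with 35.7 to 42.9 CPM in the other mutants). Among the mutants it also held the most *Plet1* and the most *Fam159b*, while its *Slc22a3*, at 6.16 CPM, was the second lowest. The intervals are wide, and correlations of moderate size in either direction were not detectable with 12 animals.

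**Figure D2:**
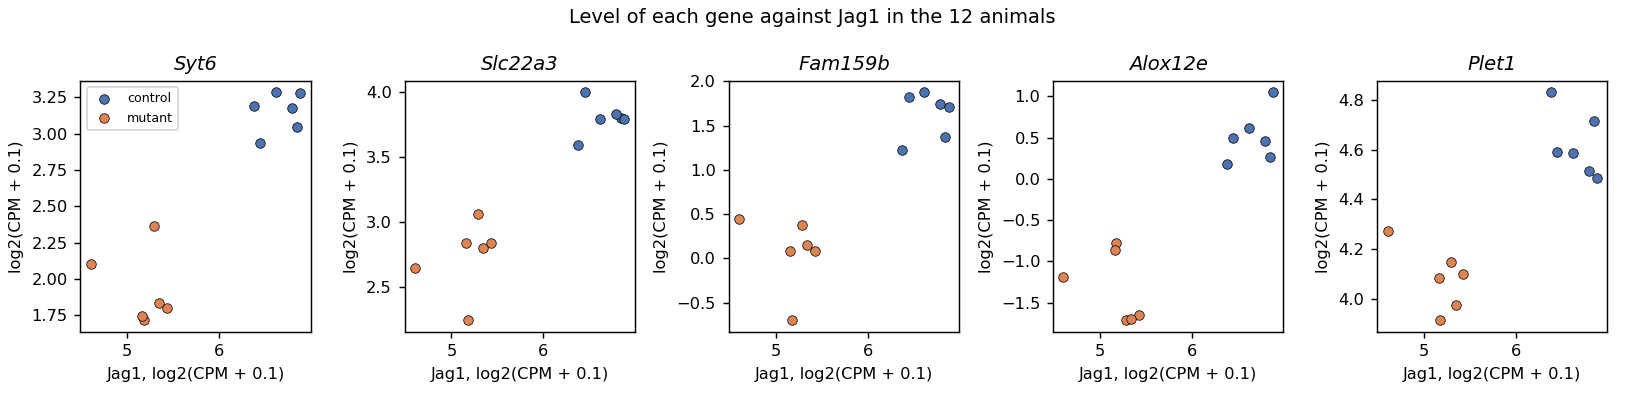
Level of each of the 5 genes (y axis) against that of *Jag1* (x axis) in the same animal, both as log2(CPM + 0.1), with controls and mutants in different colours. The genotypes form separate clouds in each panel, and within the clouds r over the 12 animals, with genotype means subtracted, lies between -0.588 for *Plet1* and 0.255 for *Slc22a3*.

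*Hey1* and *Sox2* gave larger positive values for *Slc22a3* and *Fam159b*. With *Hey1*, r over the 12 animals was 0.588 for *Fam159b* (95% interval -0.0188 to 0.878), 0.502 for *Slc22a3* (-0.141 to 0.847) and 0.349 for *Syt6* (-0.317 to 0.785). It was 0.0189 for *Plet1* and -0.386 for *Alox12e*. With *Sox2*, r was 0.475 for *Slc22a3*, 0.387 for *Fam159b*, 0.0889 for *Syt6*, -0.210 for *Alox12e* and -0.323 for *Plet1*. Permutation p over these 10 pairs with 12 animals was between 0.0634 and 0.958, and adjusted p between 0.526 and 0.958. Spearman's rho for *Fam159b* with *Hey1* was 0.486 (permutation p = 0.142), and r was 0.683 without the 2 animals farthest from the median.

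Within 1 genotype the strongest value was that of *Alox12e* with *Sox2* in mutants, r = -0.935 (exact permutation p = 0.0167, adjusted p = 0.5 over 30), where the 3 mutants with the most *Sox2* held the least *Alox12e*. Spearman's rho was -0.714 (exact permutation p = 0.136), and r was -0.806 over the 4 animals left without the 2 farthest. In controls the same pair had r = 0.480 (exact permutation p = 0.335). The difference between the genotypes was not tested. *Alox12e* had 7 to 16 reads in these mutants.

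Of the reference genes, *Sox2* and *Hey1* stood closest to each other. Over the 12 animals, r was 0.837 for *Sox2* with *Hey1*, 0.565 for *Jag1* with *Sox2* and 0.141 for *Jag1* with *Hey1*. These are descriptions, and the genes of 1 animal share its library and depth.

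Among the 5 genes themselves, none of 20 correlations within 1 genotype was called, and 3 had an unadjusted p under 0.05 by the exact permutation test. Here too, 1 pair alone could be called only at the smallest p of that test. *Slc22a3* and *Fam159b* had the closest relation over the 12 animals, with r = 0.778 (95% interval 0.334 to 0.939, permutation p = 0.0176, adjusted p = 0.441 over 25). It was similar in controls (r = 0.721, exact permutation p = 0.0903) and in mutants (r = 0.805, exact permutation p = 0.0875). Control 3 was the lowest control and mutant 2 the lowest mutant in both genes. Without the 2 animals farthest from the median r was 0.0945, and Spearman's rho was 0.400 (permutation p = 0.237), so that the relation rests on those animals. With 1 animal left out, r was between 0.417 and 0.907.

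*Plet1* and *Fam159b* had opposite signs in the genotypes. In controls r was -0.856 (exact permutation p = 0.0375) and in mutants 0.819 (exact permutation p = 0.0306), both with an adjusted p of 0.306. Spearman's rho was -0.486 and 0.771 (exact permutation p = 0.356 and 0.103). Without the 2 farthest animals r was 0.940 in controls and 0.465 in mutants, so that the negative value in controls rests on 2 animals. With 1 animal left out, r in controls was between -0.911 and -0.648. The difference between genotypes was not tested. *Alox12e* with *Plet1* in controls had r = -0.820 (exact permutation p = 0.0486, adjusted p = 0.306), rho = -0.829 (exact permutation p = 0.0583) and r = -0.631 without the 2 farthest.

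**Figure D3:**
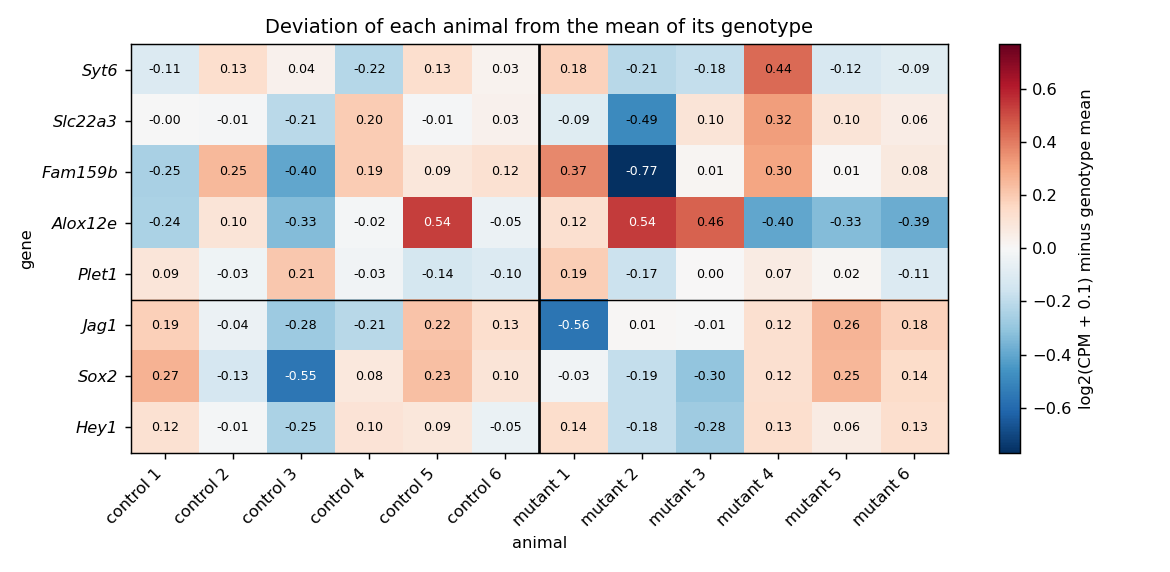
Deviation of each of the 12 animals (columns) from the mean of its genotype, in log2(CPM + 0.1), for the 5 genes (upper rows) and the reference genes (lower rows), where red is above and blue below the mean. Mutant 2 is lowest in *Slc22a3* (-0.49) and *Fam159b* (-0.77) and highest in *Alox12e* (0.54), and mutant 1 is lowest in *Jag1* (-0.56).

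Some animals were at the end of the range in several genes. Mutant 2 held the lowest level among mutants of 4 of the 5 genes, *Syt6*, *Slc22a3*, *Fam159b* and *Plet1*, and the highest of *Alox12e*. Its *Jag1* level, at 36.1 CPM, was near the middle of the mutants. Among controls, control 3 was the lowest in *Slc22a3*, *Fam159b* and *Alox12e* and the highest in *Plet1*, and it was also the lowest in *Jag1*, *Sox2* and *Hey1*.

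**Figure D4:**
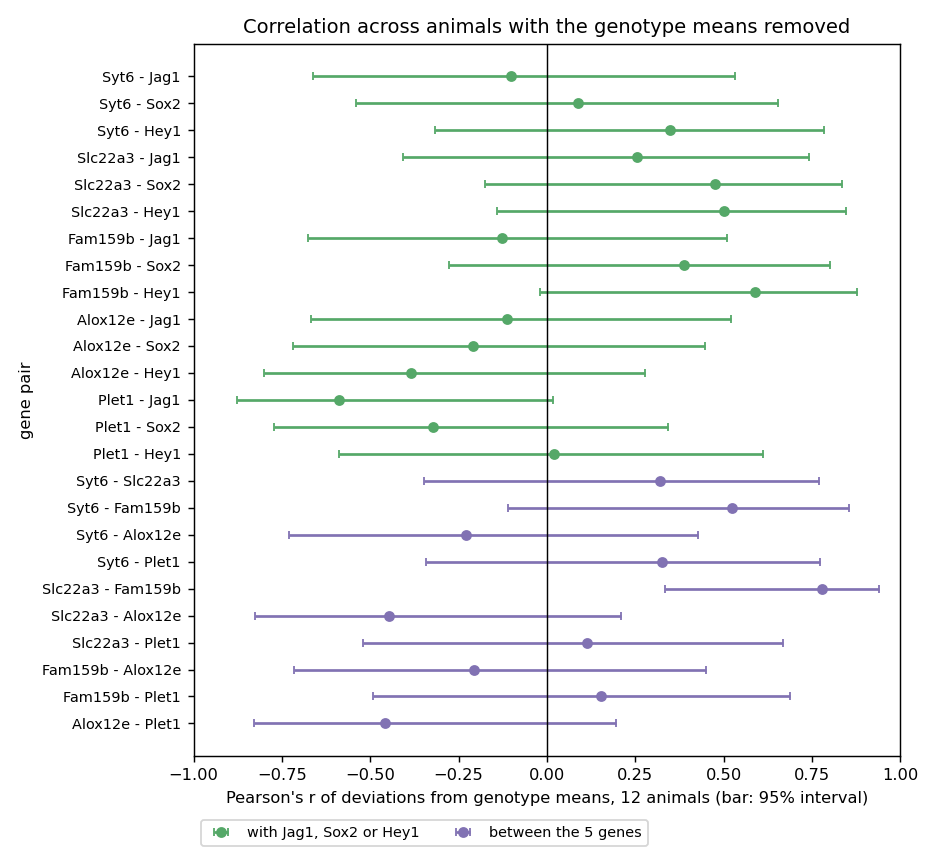
Pearson's r (points, x axis) with its 95% interval (bars) for 25 gene pairs (y axis) over 12 animals after the genotype means were subtracted, in green with *Jag1*, *Sox2* or *Hey1* and in violet between the 5 genes. The interval of 1 pair, *Slc22a3* with *Fam159b*, lies above 0, and the others include 0.

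The animal-to-animal deviations of the 5 genes were also set beside those of cell type scores, the mean log2 level of each marker list. Over the 12 animals *Syt6* had r = 0.651 with the neuron score (0.276 in controls, 0.770 in mutants). *Slc22a3* had r = -0.688 with the Schwann cell score (-0.401 in controls, -0.802 in mutants). With the supporting cell score *Slc22a3* had 0.562 (0.0364 in controls, 0.742 in mutants). *Alox12e* had r = -0.510 with the hair cell score (-0.846 in controls, -0.382 in mutants). *Plet1* had -0.524 with the mesenchyme score (-0.399 in controls, -0.627 in mutants). The values named were picked by size after all were seen, so they are high by choice. Others came near, such as *Slc22a3* with the hair cell score (0.496) and *Alox12e* with the Schwann cell score (0.479). Some differed between genotypes, as *Plet1* with the hair cell score (0.752 in controls, -0.0423 in mutants) and *Syt6* with the stria vascularis score (0.695 and -0.497). Over the 12 animals *Fam159b* stayed between -0.278 and 0.393 for the 8 scores. With the hair cell score, however, *Fam159b* had r = -0.804 in controls and 0.277 in mutants. *Jag1* had r = 0.885 with the supporting cell score. These values are descriptions, and the genes and scores of 1 animal share its library and depth. The part of the scores in the correlations above was not tested.

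The genes whose deviations were most like those of each of the 5 were sought among the 14188 genes whose counts averaged 50 or more, and are named with r over 12 animals. As the highest of 14188 values, these r are high by choice, and they were not tested. For *Syt6* they were *Crb2* (r = 0.905), *Faah* (0.901) and *Mapk11* (0.876). For *Slc22a3* they were *Ube2cbp* (0.937), *Slc12a8* (0.923) and *Kcne2* (0.882). For *Fam159b* they were *Sfxn4* (0.907), *Hlx* (0.874) and *Hacd3* (0.868). For *Alox12e* they were *Gng7* (0.883), *Gatc* (0.883) and *Kif18b* (0.881), and for *Plet1* *Anxa9* (0.912), *Inmt* (0.891) and *Gbp3* (0.864). None of these 15 genes was called between genotypes by edgeR, DESeq2 or limma-voom, and 1 had an unadjusted edgeR p under 0.05, *Anxa9* (adjusted p = 0.238). *Jag1* took the place 3949 of 14188 for *Slc22a3* and a later one for the other 4.

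Relatives of 4 of the 5 genes were measured from lists of their families. Beside the counts below stand 1949 of all 18459 tested genes at an unadjusted edgeR p under 0.05, and 619 called by DESeq2. Among 26 tested relatives of *Syt6*, none was called by edgeR, with 8 at an unadjusted p under 0.05, 6 higher and 2 lower. DESeq2 called 5, of which 4 were higher and 1 lower, and limma-voom called 0. Their median log2 fold change was 0.08, beside 0.0029 for all tested genes. The most abundant were *Esyt2*, a tether between the endoplasmic reticulum and the plasma membrane (81.2 ± 6.90 CPM in controls and 78.7 ± 8.41 in mutants), and *Syt1*, the calcium sensor of synaptic vesicles (74.3 ± 7.87 and 64.1 ± 19.8 CPM, SD, n = 6 each). The 5 that DESeq2 called, chosen after their values were seen, were *Syt2*, *Syt7*, *Syt11* and *Syt3* with log2 fold changes of 2.18, 1.51, 1.11 and 0.71 in edgeR, and *Esyt3* with -0.47. Their edgeR adjusted p values were 0.145, 0.0937, 0.108, 0.0864 and 0.0954, respectively. The neuron markers had higher levels in the same genotype, and their part was not tested.

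Among 20 tested genes of the SLC22 family and of amine clearance, none was called by edgeR, 2 had an unadjusted p under 0.05, both lower, and the median was -0.04. limma-voom called 0 and DESeq2 1, *Slc22a5*. *Slc22a17* stood at 209 ± 17.1 CPM in controls and 212 ± 24.7 in mutants, and *Slc22a23* at 69.2 ± 4.75 and 72.3 ± 4.60 (SD, n = 6 each). The carnitine carrier *Slc22a5*, also chosen after its values were seen, was the only gene of the 4 lists without overlap and lower in mutants, with 47.4 ± 2.19 CPM against 39.6 ± 2.05 in mutants (SD, n = 6 each, edgeR adjusted p = 0.0738).

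Of 10 tested Shisa genes none was called by edgeR, 2 had an unadjusted p under 0.05, 1 in each direction, DESeq2 and limma-voom called 0, and the median was 0.01. *Shisa5* stood at 107 ± 9.84 CPM in controls and 92.1 ± 6.06 in mutants, and *Shisa2* at 95.9 ± 9.41 and 99.3 ± 5.93 (SD, n = 6 each). Of 22 genes of the lipoxygenase and eicosanoid list none was called by edgeR or limma-voom, 1 had an unadjusted p under 0.05 in edgeR, and DESeq2 called 1, *Alox12*. The median was -0.09. The most abundant were *Ptgds*, a prostaglandin D synthase (3253 ± 376 CPM in controls and 2934 ± 728 in mutants), and *Gpx4*, which reduces lipid peroxides (173 ± 10.5 and 155 ± 25.9). In the Notch list, which holds the deleted gene *Jag1* itself, edgeR called 3 of 55 tested genes, *Jag1*, *Hey1* and *Lfng*, all lower. The family lists leave out the member they were built around, so their counts are not compared with this one. DESeq2 called 6 of the 55, all lower, and limma-voom the same number as edgeR.

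**Figure D5:**
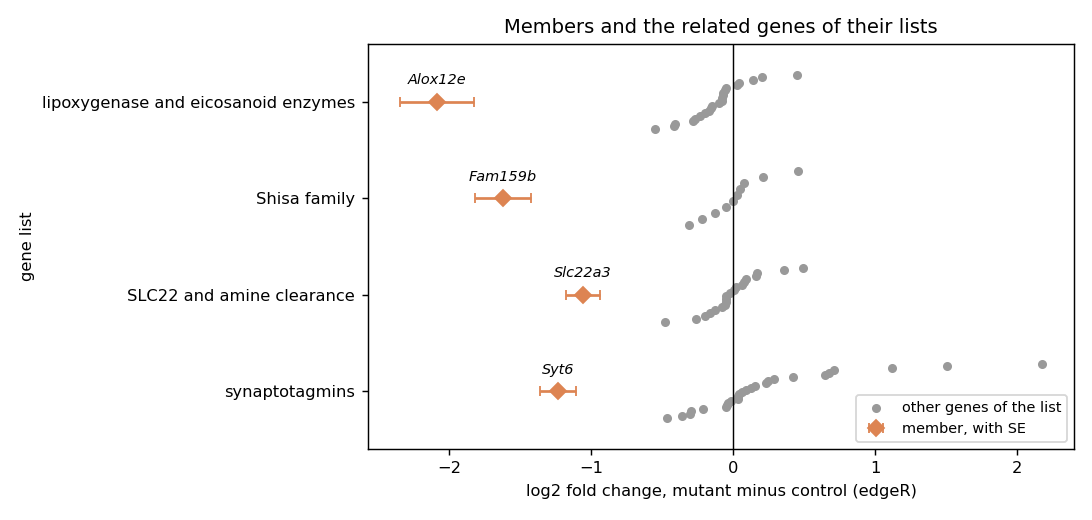
Log2 fold change of mutants against controls from edgeR (x axis) for *Syt6*, *Slc22a3*, *Fam159b* and *Alox12e* (diamonds, with SE) and for the other tested genes of each list (grey points), 1 list per row. The diamonds lie between -1.06 and -2.08, and the grey points lie closer to 0 or, for *Syt2*, *Syt7* and *Syt11*, above 1.

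Of the 10 nearest tested genes on the chromosome, edgeR and limma-voom called none, 2 had an unadjusted edgeR p under 0.05 and DESeq2 called those 2, *Alox12* and *Olfml3*. Over all 18459 tested genes, 1949 had such a p and DESeq2 called 619. *Alox12e* lies in a cluster of lipoxygenase genes, where *Alox12*, at 60.3 kilobases, had 6.86 ± 0.579 CPM in controls and 5.17 ± 0.906 in mutants (SD, n = 6 each), or -0.41 on the log2 scale (edgeR adjusted p = 0.133). On its other side *Alox15*, at 21.5 kilobases, had -0.17 (edgeR adjusted p = 0.904). Near-identical stretches within the cluster could share reads, and this was not tested. *Srek1ip1*, only 6.01 kilobases from *Fam159b*, had a log2 fold change of 0.06, and *Rgs7bp*, on the other side of *Fam159b*, had 0.10. *Pts* next to *Plet1* had 0.17, and *Rpl10-ps3*, which had few reads (3 to 36), -1.06 (edgeR adjusted p = 0.485). *Olfml3* next to *Syt6* had 0.48 (edgeR adjusted p = 0.0836) and *Trim33* 0.08. *Slc22a2*, the next cation carrier beside *Slc22a3*, had only 5 to 18 reads and a log2 fold change of 0.36, and *4732491K20Rik* had 0.06.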

How the data were processed

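RNA was sequenced from cochlear tissue of 12 mice, 6 per genotype, as single-end reads. The deposited table of the authors holds raw counts, 1 row per symbol and 1 column per animal, not normalized. The submitters' processing notes name Trimmomatic 0.32, STAR 2.4.2a, HTSeq 0.9.1, DESeq2 1.10.1 and GRCm38.p4. The annotation and strand setting are not given in the sources used here. A deposited table of the authors' own DESeq2 comparison (mean, fold change, error, p-values) was not used.

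Genes averaging 5 counts or more were tested with edgeR 4.0.16 (quasi-likelihood, TMM, robust, Benjamini-Hochberg adjustment over 18459 genes, no covariates) in R 4.3.3. SEs were derived from the fold and its F statistic. The fit and the correlation tests were checked on simulated data. CPM values carry the TMM factors and a pseudocount of 0.1 for logs. Correlations used exact permutation (6 animals) or 100000 permutations within genotypes (12 animals), two-sided. The adjustment was made over 30, 20 and 25 pairs, respectively. Intervals of r are 95% Fisher intervals. Total counts per animal were 28498549 to 36134983, and counting error limits *Alox12e* and *Fam159b* most. P-values of edgeR weigh the difference between genotypes against the spread between these animals, counting error included. Those of the permutation tests compare a correlation with those of the same values re-paired between animals.

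Alternatives were DESeq2 1.42.0, upper-quartile or RLE scaling, limma-voom (limma 3.58.1), other filters, the replicate number as a block, marker scores as covariates, other forms of the correlation, and leaving out each animal. Positions and exon lengths come from GENCODE M21 (GRCm38), in which 94.5% of symbols were found, 640 by an older symbol. Promoters come from RefSeq (GRCm38.p6). Named genes are the 5 genes, *Jag1*, *Sox2* and *Hey1*, the 3 most alike to each, the genes of each family list that edgeR called (there were none) and its 2 most abundant, the nearest tested neighbours and the genes at the edge of non-overlap. The members and the lists were chosen with earlier results of these data known.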

Additional observations from a re-analysis of the deposited data

How the results depend on the processing

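Each of the 5 genes stayed lower in mutants under all 20 alternatives, and no log2 fold change moved by more than the spread between animals. They ranged from -1.42 to -1.19 for *Syt6*, -1.13 to -0.86 for *Slc22a3*, -1.70 to -1.49 for *Fam159b*, -2.35 to -1.95 for *Alox12e* and -0.58 to -0.49 for *Plet1*. The number of genes called, 35, was 57 with no filter, 619 with DESeq2, 19 with limma-voom and 1 with covariates for the neuron and Schwann cell scores, and the cause was not tested. It ranged from 14 to 357 with 1 animal left out. It was 14 without control 2, 22 without control 3, 17 without control 4, 15 without control 5, 14 without control 6, 54 without mutant 1, 17 without mutant 2, 66 without mutant 4, 357 without mutant 5 and 15 without mutant 6. The replicate number as a block gave 131 calls, but the labels do not say what the numbers stand for. Deviations of same-numbered animals correlated at -0.257, 0.266, 0.450, -0.285, 0.0827 and 0.258. Such values cannot show whether the numbers pair the animals.

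The number of called correlations was 0 in all 3 families and under every alternative. Within 1 genotype this says nothing about stability where animals were left out, since the smallest exact p is 0.00833 with 5 animals and 0.0417 with 4, before the adjustment over 30 or 20 pairs. The sign of weak correlations over the 12 animals did change. With 1 animal left out, r of *Syt6* was between -0.334 and 0.202 with *Jag1* and between -0.0425 and 0.194 with *Sox2*, r of *Fam159b* with *Jag1* between -0.335 and 0.258, and r of *Plet1* between -0.502 and 0.158 with *Sox2* and between -0.195 and 0.449 with *Hey1*. With CPM not on a log scale, r became 0.138 for *Syt6* with *Jag1*, -0.0527 for *Syt6* with *Sox2*, 0.0363 for *Fam159b* with *Jag1*, 0.363, 0.203 and 0.117 for *Alox12e* with *Jag1*, *Sox2* and *Hey1*, and -0.193 for *Plet1* with *Hey1*. With a pseudocount of 1 CPM, *Alox12e* had 0.0569 with *Jag1* and 0.00524 with *Sox2*. As Spearman's rho, *Syt6* with *Jag1* was 0.0857 and *Fam159b* with *Sox2* -0.0286. Without the 2 farthest animals, r was 0.296 for *Syt6* with *Jag1*, 0.000617 for *Fam159b* with *Jag1*, 0.0577 and 0.197 for *Plet1* with *Jag1* and *Sox2*, and 0.940 for *Fam159b* with *Plet1* in controls. With the marker scores removed, r was -0.0163 for *Syt6* with *Sox2*, 0.0236 for *Alox12e* with *Jag1* and -0.0353 for *Plet1* with *Hey1*. With the replicate block, r was -0.302 for *Syt6* with *Sox2*, -0.0423 for *Fam159b* with *Sox2* and 0.0266 for *Alox12e* with *Sox2*. RLE scaling left the family lists without a call.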

Other observations

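No animal stood apart from its genotype by the 95% criterion of Dixon in any of the 5 genes or in *Jag1*, *Sox2* and *Hey1*, over 16 groups screened. The nearest to it was *Jag1* in mutant 1, at 24.2 CPM, whose distance to the next animal was 0.613 of the range of the mutants.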
